A study of Mus musculus with 7 samples.

Results

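The miR-99/100 and miR-125 families were followed in the colorectum of 6 mice through 6 of the 1915 mature miRNA entries counted by small RNA sequencing. The entries were taken by name: mmu-miR-99a-5p, mmu-miR-99b-5p and mmu-miR-100-5p, the passenger arm mmu-miR-100-3p, and mmu-miR-125a-5p and mmu-miR-125b-5p. All mice were wild-type C57BL/6 females, aged 7 weeks when the injection was given. The 3 CRC mice (M4, M5 and M6) had received azoxymethane, a colon carcinogen, at 10 mg per kg. From 5 days later they drank 2.5% dextran sodium sulfate, which injures the colon lining, for 7 days, with 14 days of water after it in a cycle that the labels describe as repeated. Their stage is given as T1, day 17. The event from which day 17 is counted is not given here, so how many cycles had been completed by then is unknown here. The 3 healthy mice (M1, M2 and M3) had received 0.9% saline, and the labels do not say what they drank. No group is labelled as given the carcinogen or the sulfate alone, so their effects cannot be told apart. The mice are separate animals, so p-values measure the spread between mice. Mouse M1 has 2 labelled libraries and 1 column of counts, which was used as 1 profile.

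Both families sit in 3 genomic clusters, each with a let-7 hairpin between a miR-99 or miR-100 hairpin and a miR-125 hairpin. A miRNA finds its targets mainly through its seed, bases 2 to 8. miR-99 and miR-100 are known for repressing the growth kinase mTOR and the IGF1 receptor, and miR-125 is the vertebrate counterpart of the worm timing miRNA lin-4. In human colorectal cancer cells, miR-100 and miR-125b are known for raising Wnt signalling by repressing its inhibitors. The entries are shown with the seed in capitals because it defines the families and because 2 of the sequences are almost the same. All 6 were found in RefSeq (GRCm38.p6) and were identical there to the deposited sequence.

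miR-99a-5p: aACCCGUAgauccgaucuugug
miR-100-5p: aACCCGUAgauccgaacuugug
miR-99b-5p: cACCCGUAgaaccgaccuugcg
miR-125a-5p: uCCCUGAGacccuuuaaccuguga
miR-125b-5p: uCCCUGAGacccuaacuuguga
miR-100-3p: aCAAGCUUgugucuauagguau

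The 3 miRNAs of the miR-99/100 family share the seed ACCCGUA. miR-99a-5p and miR-100-5p have 22 bases each and differ by 1 substitution, U16A, counted from the 5′ end with the base of miR-99a-5p first. Against miR-99a-5p, miR-99b-5p carries A1C, U11A, U16C and U21C. miR-125a-5p (24 bases) and miR-125b-5p (22 bases) share the seed CCCUGAG and their first 13 bases, and 3 single-base edits turn one into the other. The mismatches tolerated in counting are unknown here, so reads could have been split between miR-99a-5p and miR-100-5p. The values of the 2 are uncertain to that extent, and the family sums are given beside them.

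In GRCm38 the hairpin Mir99a (chr16:77598936-77599000) lies with Mirlet7c-1 and Mir125b-2 over 47408 bases in introns of the noncoding Mir99ahg. Mir100 (chr9:41531425-41531504), Mirlet7a-2 and Mir125b-1 span 50578 bases in introns of the noncoding 3110039I08Rik and Gm49317. Mir99b (chr17:17830188-17830257), Mirlet7e and Mir125a span only 692 bases within the protein-coding gene Spaca6, the first 2 in an intron and Mir125a overlapping an exon. Mir125b-2 also overlaps an exon of C130023A14Rik, and Mir125b-1 an exon of Gm28119. All of these hairpins are on the plus strand. Mature miR-125b-5p comes from both Mir125b-1 and Mir125b-2 and cannot be assigned to either.

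Total miRNA reads lay between 3206127 and 6601899 in CRC mice and between 8222508 and 15280434 in healthy mice. The 6 entries together took 1.15%, 0.892% and 0.683% of the reads in CRC mice M4, M5 and M6, and 0.859%, 0.896% and 1.32% in healthy mice M1, M2 and M3. The profiles lay in pairs: across 279 miRNAs the correlation of log2 levels was 0.966 between CRC mouse M4 and healthy mouse M3, 0.984 between M5 and M6 and 0.992 between M1 and M2, and at most 0.909 otherwise (miRNAs are not independent replicates). Epithelial miRNAs of the list that includes miR-192-5p made up 13.7% to 17.7% of reads in CRC mice, as colorectum should show. In healthy mice they made up 12.4% to 14.3%. These shares are of unscaled reads, and the scaled levels of this list are given with the other markers below. Smooth muscle miRNAs, led by miR-145a-5p, made up 20.7% in M4, 7.07% in M5 and 6.55% in M6, against 41.6% in M1, 48.0% in M2 and 21.1% in M3. In whole tissue, fewer cells of a type and less RNA per cell cannot be told apart. Levels below are in CPM, the count of a miRNA relative to its library size, with library sizes scaled by TMM, which assumes that most miRNAs are equal between libraries.

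Levels of miR-100-5p were lowest in CRC mice M5 and M6 and highest in healthy mice M1 and M2. The level was 659, 242 and 188 CPM in CRC mice M4, M5 and M6, against 1613, 1829 and 347 CPM in M1, M2 and M3. The groups overlapped because the healthy mouse M3 lay below the CRC mouse M4. The means were 363 ± 258 CPM in CRC and 1263 ± 801 CPM in healthy mice (SD, n = 3 each). The log2 fold change of CRC over healthy was -1.80 (SE 0.69) in edgeR's quasi-likelihood test, with an unadjusted p of 0.0276 and an adjusted p of 0.156 (Benjamini-Hochberg over 878 tested miRNAs). miR-100-5p thus did not pass the threshold of 0.05. It was the 1 of the 6 entries at an unadjusted p under 0.05, where 9.68% of all tested miRNAs were lower in CRC at that level.

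Its near-identical relative miR-99a-5p followed the same order of mice except within the lowest 3. The level was 1732, 1025 and 912 CPM in M4, M5 and M6, against 2925, 3532 and 789.8 CPM in M1, M2 and M3. Healthy mouse M3 was the lowest of all 6, and the other healthy mice were the highest. The log2 fold change was -0.98 (SE 0.56, edgeR adjusted p = 0.309). With the counts of miR-99a-5p and miR-100-5p alone summed it was -1.22 (SE 0.58, edgeR adjusted p = 0.237). With the counts of miR-99a-5p, miR-99b-5p and miR-100-5p summed, the log2 fold change was -1.04 (SE 0.51, edgeR adjusted p = 0.247).

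miR-99b-5p, made from the compact chromosome 17 cluster, did not share that order. Its level was 1116, 397 and 437 CPM in M4, M5 and M6, against 763, 878 and 1032 CPM in M1, M2 and M3. CRC mouse M4 was the highest of all and M5 and M6 the lowest, so the groups overlapped through M4 alone. The log2 fold change was -0.45 (SE 0.48, edgeR adjusted p = 0.598). It was -0.87, also not past the threshold, once each profile's trend with GC content was removed, and miR-99b-5p has the highest GC content of the 6, 63.6%.

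The miR-125 pair followed the order of miR-99b-5p more closely than that of miR-99a-5p. miR-125b-5p, the most abundant of the 6, had 6201, 2834 and 2146 CPM in M4, M5 and M6, against 4425, 6104 and 7137 CPM in M1, M2 and M3. miR-125a-5p had 2432, 1253 and 968 CPM in M4, M5 and M6, against 2194, 3041 and 2631 CPM in M1, M2 and M3. For both, M5 and M6 lay below every healthy mouse while M4 lay among them. The log2 fold changes were -0.66 (SE 0.46, edgeR adjusted p = 0.410) for miR-125b-5p and -0.76 (SE 0.43, edgeR adjusted p = 0.309) for miR-125a-5p. The sum of both gave -0.70 (SE 0.45, edgeR adjusted p = 0.359).

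miR-100-3p, the arm that is mostly discarded when miR-100 is made, was near the limit of detection. It had 28 counts in M4, 19 in M5 and 6 in M6, against 31 in M1, 34 in M2 and 7 in M3. The levels were 1.27 to 4.47 CPM in CRC and 0.771 to 3.82 CPM in healthy mice, with a log2 fold change of 0.20 (SE 0.69, edgeR adjusted p = 0.889). It was -0.30 without M3 and -0.071 without M4, so its sign rests on single mice.

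**Figure D1:**
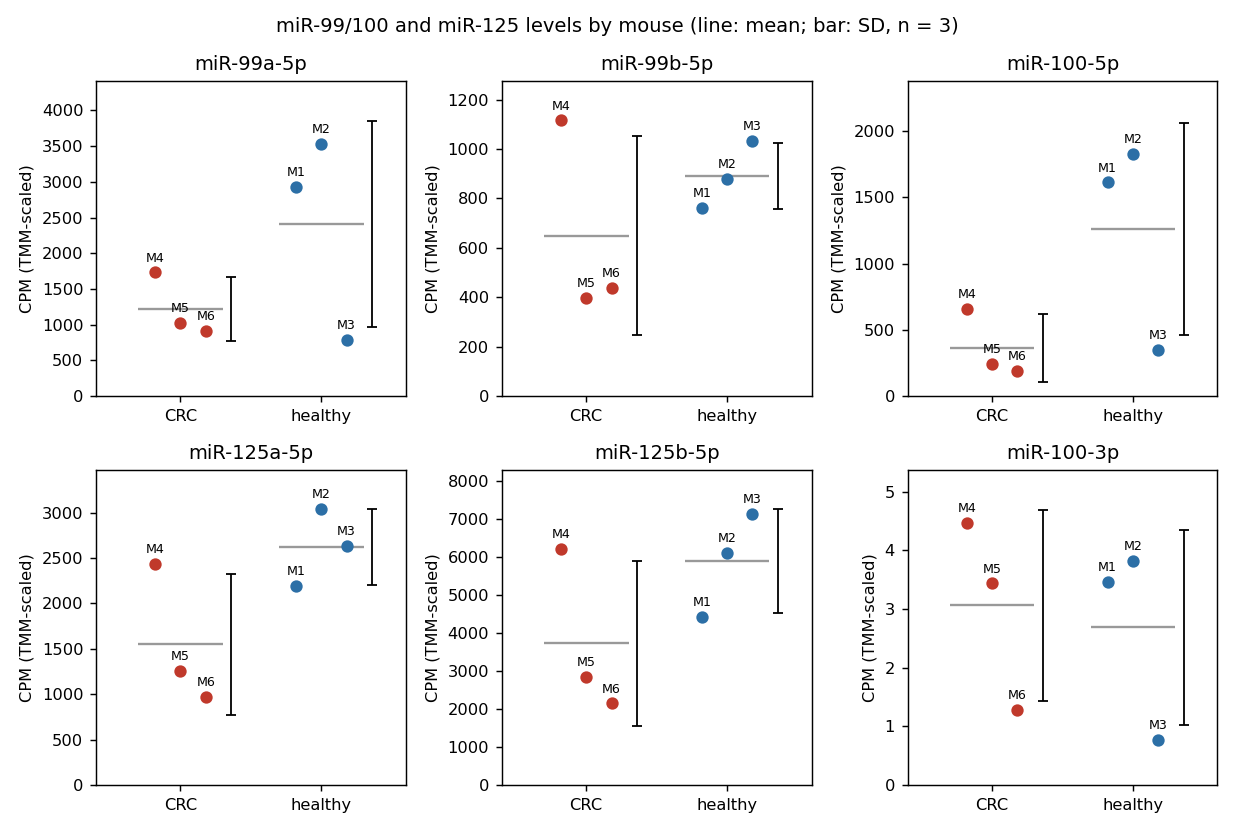
Level of each of the 6 entries by mouse, in TMM-scaled CPM on linear axes from 0, with CRC mice in red and healthy mice in blue, the mean as a line and the SD as a bar (n = 3 each). In the miR-99a-5p and miR-100-5p panels the healthy mouse M3 sits apart from M1 and M2, at 789.8 and 347 CPM, while in the miR-99b-5p and miR-125 panels it lies with them.

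By mean level over the 6 mice the order was miR-125b-5p, miR-125a-5p, miR-99a-5p, miR-100-5p, miR-99b-5p and miR-100-3p. The mature sequences are of near-equal length, but counts of different miRNAs in 1 library also depend on how each is ligated and amplified, which was not measured. miR-125b-5p exceeded miR-125a-5p in 6 of 6 mice, by 1.01 to 1.44 log2 units, and miR-99a-5p exceeded miR-100-5p in 6 of 6, by 0.86 to 2.28. The neighbours miR-125a-5p and miR-99a-5p changed places between mice, with miR-125a-5p higher in 4 of 6. So did miR-100-5p and miR-99b-5p, with miR-100-5p higher only in M1 and M2.

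Of the 6 entries, all 6 passed the filter on low counts and 0 were called, where 2.28% of the 878 tested miRNAs were called in either direction. At an unadjusted p under 0.05 there was 1, miR-100-5p, and DESeq2 (111 calls over all miRNAs) and limma-voom (0 calls) each called 0 of the 6. None of the 6 had every CRC mouse below every healthy mouse, a pattern held by 12.4% of tested miRNAs. The 6 entries had a median log2 fold change of -0.71, against -0.03 over all tested miRNAs. These values rest on the scaling. With total counts alone, which moved the fold changes of all miRNAs by a median of 0.71, miR-100-5p had -1.03, miR-99a-5p and miR-125a-5p each -0.14, miR-125b-5p -0.12, miR-99b-5p 0.074 and miR-100-3p 1.03.

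The values also rest on single mice. Without M2, miR-99a-5p had -0.41, miR-100-5p -1.23 and the miR-99/100-5p sum -0.55, all nearer to 0. Without M6, miR-125b-5p had -0.39 and the miR-125-5p sum -0.43, and miR-99b-5p had -0.24 (-0.17 without M5). Leaving out M4 moved the other way, to -1.01 for miR-99b-5p, -1.16 for miR-125a-5p, -1.17 for miR-125b-5p and -1.14 for the miR-125-5p sum. M3 and M4 are the similar profiles from opposite groups. Without M4, miR-100-5p was called lower in CRC (log2 fold change -2.45, edgeR adjusted p = 0.0338), in a fit that called 5.64% of 1188 tested miRNAs lower. With both M3 and M4 left out, an alternative added after the data were seen that leaves 2 mice a group, all 5 of the 5p entries were called lower, where 27.4% of 1082 tested miRNAs were. miR-100-5p had the largest change of the 5, -3.29 (SE 0.26), and miR-99b-5p the smallest, -1.26 (SE 0.25). The mice left are the most alike pairs, M1 with M2 and M5 with M6, so this choice itself favours small errors and many calls. A further added fit took neighbouring profiles as blocks, so that its fold change is that of CRC mouse M4 over healthy mouse M3. The blocks were drawn from the correlations of these profiles, as the labels give no pairing. This fit sets 1 mouse against 1, and its standard errors come only from the spread within the pairs M1 with M2 and M5 with M6. Those pairs are the most alike, so the errors can understate the spread between mice. miR-99a-5p had 1.13 (SE 0.29) and miR-100-5p 0.93 (SE 0.31), while miR-125a-5p had -0.11 (SE 0.32) and miR-125b-5p -0.20 (SE 0.32), the last 2 within their error of 0. In that fit 0 of the 6 entries were called, where 3.08% of 878 tested miRNAs were.

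**Figure D2:**
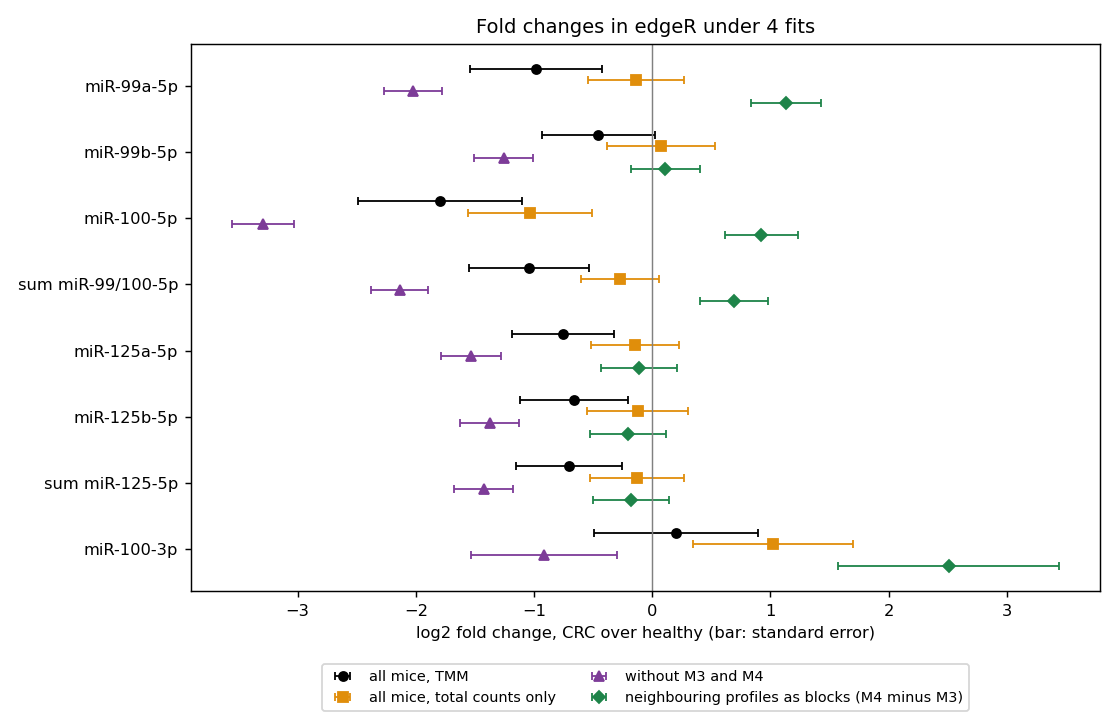
Log2 fold change of CRC over healthy (horizontal axis, bars are standard errors) for the 6 entries and the 2 family sums, in 4 edgeR fits shown by colour. For miR-100-5p the fits run from -3.29 without M3 and M4 to 0.93 for M4 minus M3.

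Ratios between entries within a mouse do not depend on library scaling, and they show how the families were made up. miR-125a-5p made up 28.2%, 30.7% and 31.1% of the miR-125-5p reads in CRC mice M4, M5 and M6, and 33.2%, 33.3% and 26.9% in healthy mice M1, M2 and M3. This make-up was nearly even across all 6 mice. Within the miR-99/100-5p reads, miR-99b-5p ran from 23.9% in M5 to 31.8% in M4 among CRC mice and from 14.1% in M2 to 47.6% in M3 among healthy mice. miR-100-5p took 18.8%, 14.5% and 12.2% in M4, M5 and M6, and 30.4%, 29.3% and 16.0% in M1, M2 and M3. The miR-99/100 family thus had its widest spread in make-up inside the healthy group.

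**Figure D3:**
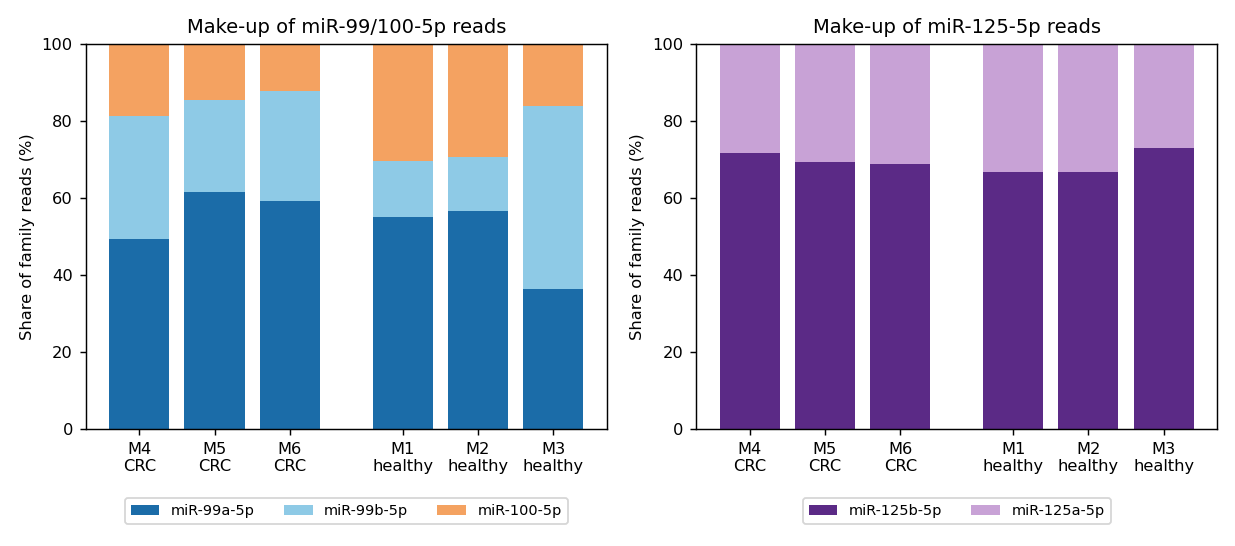
Share of family reads (percent, stacked to 100) for miR-99/100-5p on the left and miR-125-5p on the right, 1 bar per mouse, CRC mice M4 to M6 and then healthy mice M1 to M3. The miR-125a-5p share stays between 26.9% and 33.3%, while the miR-99b-5p share runs from 14.1% to 47.6%.

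Over the 6 mice the log2 ratio of miR-125a-5p to miR-125b-5p spanned 0.43 log2 units. Of 38781 pairs among the 279 tested miRNAs with a mean of at least 50 CPM, 0.523% had a narrower span, and the median span was 2.22. Low counts widen a span, so the same was counted among the 118 miRNAs with a mean of at least 500 CPM, where 0.942% of 6903 pairs were narrower. The span was 0.67 between miR-99b-5p and miR-125a-5p, which come from the same short cluster. It was narrower, 0.54, between miR-99b-5p and miR-125b-5p, whose hairpins lie in different clusters. It was 1.42 between miR-99a-5p and miR-100-5p, also from different clusters. The span was 2.58 between miR-99a-5p and miR-125b-5p, which share the chromosome 16 cluster. It was 2.9 between miR-100-5p and miR-125b-5p, which share the chromosome 9 cluster. These spans describe these 6 mice, and no test was made of them.

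Of 8 ratios compared between the groups by an exact permutation test (two-sided), 2 had groups that did not overlap. With 3 mice against 3 the smallest possible p is 0.1, which both reached, and after adjustment over the 8 ratios it was 0.4, so no ratio passed the threshold. The first was miR-100-5p to miR-99a-5p, 0.380, 0.236 and 0.206 in M4, M5 and M6, against 0.551, 0.518 and 0.439 in M1, M2 and M3. The difference in mean log2 ratio was -0.92. Reads could have been split between these 2 entries, which would bear on this ratio, on their span and on their correlation over the mice. Groups that did not overlap were seen for 23.3% of all pairs of miRNAs with at least 50 CPM.

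The second was miR-100-5p to miR-100-3p, with a difference of -2.02 in mean log2 ratio. The 3p arm was 0.674% of the reads of both arms in M4 (95% exact binomial interval 0.449 to 0.973), 1.40% in M5 (0.847 to 2.18) and 0.673% in M6 (0.247 to 1.46). In healthy mice it was 0.214% in M1 (0.146 to 0.304), 0.209% in M2 (0.144 to 0.291) and 0.222% in M3 (0.0892 to 0.456). These intervals cover counting error only, and the interval of M3 overlaps that of M4 while that of M6 overlaps those of all 3 healthy mice. Among 236 hairpins whose arms each averaged at least 10 counts, 6.36% had a lower 5p to 3p ratio in every CRC mouse than in every healthy mouse.

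The other 6 ratios had overlapping groups. The ratio of all miR-99/100-5p to all miR-125-5p was 0.406, 0.407 and 0.494 in M4, M5 and M6, and 0.801, 0.682 and 0.222 in M1, M2 and M3 (difference in mean log2 ratio -0.19, exact permutation p = 0.9). The CRC mice were alike, and the healthy mice lay on both sides of them. Without M3 the difference was -0.77, and without M1 it was 0.16. The ratio of miR-99a-5p plus miR-100-5p to miR-125b-5p was 0.386, 0.447 and 0.513 in the CRC mice and 1.03, 0.878 and 0.159 in the healthy mice. Differences in mean log2 ratio were -0.07 for miR-125a-5p to miR-125b-5p, 0.25 for miR-99b-5p to miR-125a-5p, 0.17 for miR-99b-5p to miR-99a-5p and 0.18 for the chromosome 17 entries to the other 3 of the 5p entries, with exact permutation p-values of 0.3 to 1.

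**Figure D4:**
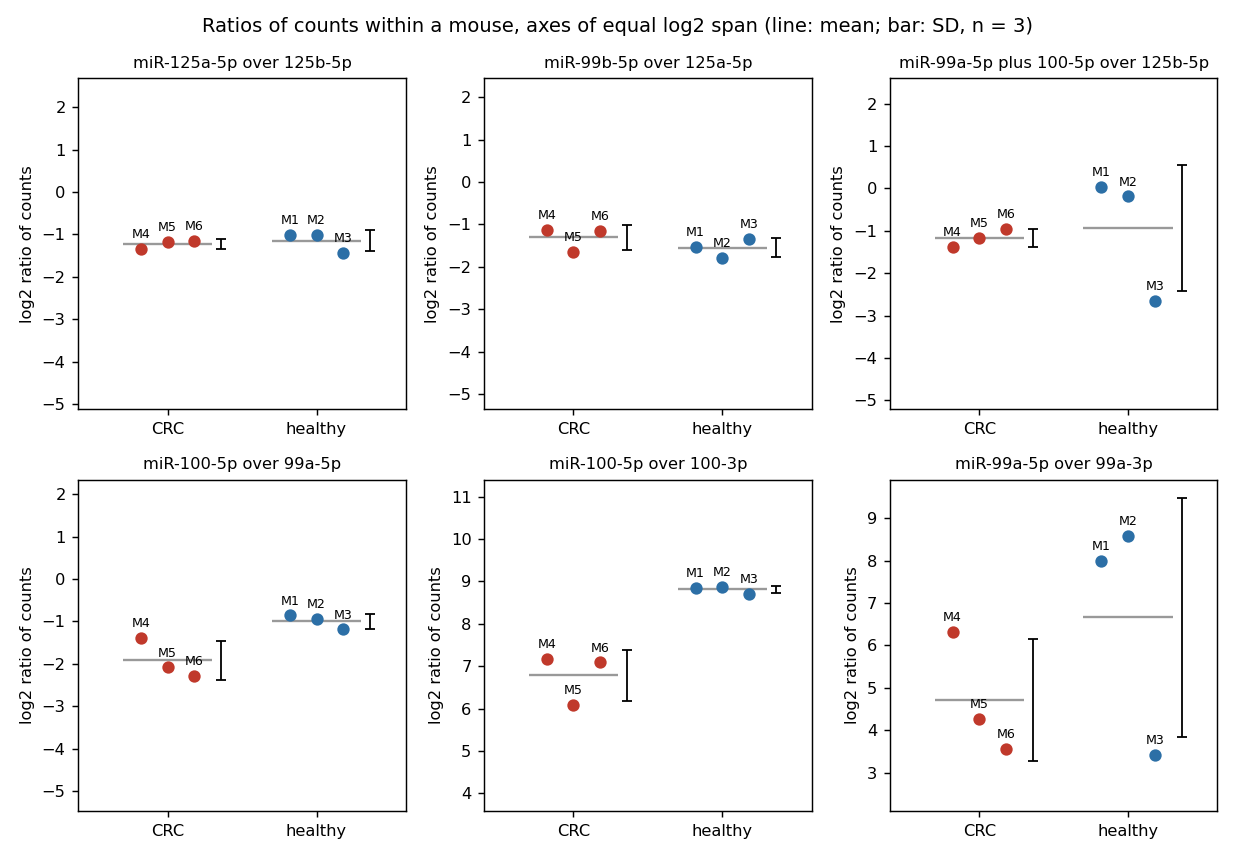
Log2 ratios of counts within each mouse, on axes of equal span, with CRC mice in red and healthy mice in blue, the mean as a line and the SD as a bar (n = 3 each). The miR-125a-5p to miR-125b-5p ratio is nearly flat across mice, the miR-100 arm ratio separates the groups, and the miR-99a arm ratio puts M3 with M5 and M6.

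Passenger arms of the other hairpins, compared after seeing the data, did not all move alike. miR-99a-3p was 1.23%, 4.97% and 7.78% of both arms in M4, M5 and M6, against 0.392%, 0.260% and 8.54% in M1, M2 and M3. The count of miR-99a-3p was 670 in M3, against 103 in M1 and 82 in M2, while miR-99a-5p was lowest there. Across the 6 mice this arm ratio spanned 5.15 log2 units, the 10th widest of the 236 hairpins. miR-99b-3p was 3.25%, 5.14% and 5.77% of both arms in M4, M5 and M6, and 3.04%, 2.99% and 2.69% in M1, M2 and M3, so the groups did not overlap, as for 6.36% of the 236 hairpins. The difference in mean log2 ratio of 5p to 3p was -0.69 (exact permutation p = 0.1, adjusted over the 5 further ratios 0.25). miR-125a-3p overlapped, with 0.345% to 1.63% in CRC and 0.781% to 1.18% in healthy mice. The log2 ratio of miR-125b-5p to its 2 passenger arms together was 6.66, 6.25 and 6.27 in M4, M5 and M6, and 6.74, 6.88 and 6.97 in M1, M2 and M3, without overlap (difference -0.47, exact permutation p = 0.1, adjusted 0.25). This ratio sums 2 arms, and no share over all hairpins was counted for ratios of that kind, so the lack of overlap has no background beside it. For miR-125b the 2 passenger arms tell the loci apart: the ratio of miR-125b-1-3p (chromosome 9) to miR-125b-2-3p (chromosome 16) was 1.05, 0.236 and 0.144 in M4, M5 and M6, and 0.717, 0.647 and 0.484 in M1, M2 and M3. M5 and M6 were the lowest, on 39 and 16 counts of miR-125b-1-3p.

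Of the 12 let-7 and passenger entries of these clusters and their copies, 12 were tested and 0 were called, where 2.28% of all tested miRNAs were, so that none among 12 is near the background. At an unadjusted p under 0.05 there were also 0, where 9.68% of all were lower in CRC. Their median log2 fold change was -0.13, against -0.03 over all tested miRNAs, and 9 were negative. With total counts alone the median was 0.50. let-7e-5p, between miR-99b and miR-125a, had -0.68 (SE 0.42), let-7c-5p -0.06 (SE 0.46) and let-7a-5p -0.39 (SE 0.40). The last 2 also come from hairpins outside these clusters. The arms let-7e-3p (-0.07), let-7a-2-3p (0.13), let-7c-1-3p (-0.12), miR-99a-3p (0.68), miR-99b-3p (0.11), miR-125a-3p (-0.56), miR-125b-1-3p (-0.42) and miR-125b-2-3p (-0.15) had log2 fold changes within 1 unit of 0. let-7c-2-3p had -0.14 (SE 0.50). Its deposited sequence is identical to that of let-7a-1-3p, which had -0.32 (SE 0.48), and how reads were divided between these 2 entries is unknown here.

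The miR-125 seed CCCUGAG was shared by 3 further entries, of which miR-351-5p was tested, with 12.2 ± 6.77 CPM in CRC and 19.2 ± 7.08 CPM in healthy mice (SD, n = 3 each). Its log2 fold change was -0.65 (SE 0.54, edgeR adjusted p = 0.499). The entries miR-6367 and miR-6394 had 4 to 9 counts in every mouse and were not tested. miR-670-5p holds the same run of bases 1 position further on and had 0 to 8 counts. No further entry with the seed of miR-99/100 was found.

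The miRNAs most like each entry over the 6 mice were named next. Likeness was the Pearson r of log2 CPM among 274 other miRNAs with a mean of at least 50 CPM, given as a description of 6 profiles that share their scaling. For miR-99a-5p they were miR-872-5p (r = 0.995), miR-503-5p (0.973) and miR-872-3p (0.972), and for miR-100-5p miR-23a-3p (0.992), miR-185-5p (0.990) and miR-494-3p (0.984). For miR-99b-5p they were miR-146a-5p (0.971), miR-222-3p (0.969) and miR-141-5p (0.967). For miR-125a-5p they were miR-22-5p (0.999), miR-214-5p (0.966) and miR-143-5p (0.948), and for miR-125b-5p miR-22-5p (0.967), let-7j (0.948) and miR-146a-5p (0.928). Among the entries themselves r was 0.968 between miR-125a-5p and miR-125b-5p, 0.953 between miR-99a-5p and miR-100-5p and 0.950 between miR-99b-5p and miR-125b-5p, but 0.358 between miR-99a-5p and miR-125b-5p.

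Markers of several cell types are listed beside these levels, and their part in them was not tested. The shares below are percent of unscaled reads, while the levels of the entries are TMM-scaled. The 6 smooth muscle miRNAs had a median log2 fold change of -1.98, with 0 called and 6 lower at an unadjusted p under 0.05 in edgeR. Over all tested miRNAs 9.68% were lower at that level. M1 and M2, which had most smooth muscle reads, also had the highest miR-99a-5p and miR-100-5p. M4 and M3 had nearly equal smooth muscle shares, while miR-99a-5p was 1.13 log2 units higher in M4 than in M3. Blood-lineage miRNAs, led by miR-142a-3p, made up 0.821% of reads in M4, 1.13% in M5 and 1.25% in M6, against 0.318% in M1, 0.218% in M2 and 1.74% in M3. Endothelial miRNAs, led by miR-126a-3p, were 1.20% to 1.97% in CRC and 0.787% to 1.33% in healthy mice. In TMM-scaled CPM their sum was 9384 to 12684 in CRC and 10998 to 13516 in healthy mice. The epithelial list, led by miR-192-5p, had a TMM-scaled sum of 166356, 88425 and 120524 CPM in M4, M5 and M6. That sum was 197836, 219812 and 112463 CPM in M1, M2 and M3. Its 9 miRNAs had a median log2 fold change of -0.49, with 0 called and 0 at an unadjusted p under 0.05 in edgeR. Fibroblast miRNAs, led by miR-214-3p, were 0.682% to 1.02% in CRC and 0.737% to 0.867% in healthy mice. Their TMM-scaled sum was 10765, 5587 and 4648 CPM in M4, M5 and M6, against 12040, 14213 and 6667 CPM in M1, M2 and M3. Nerve miRNAs, led by miR-124-3p, were 0.0166% to 0.0197% in CRC and 0.0228% to 0.0296% in healthy mice. Of these markers 0 were called, where 2.28% of all tested miRNAs were. At an unadjusted p under 0.05, 1 of the 5 fibroblast and 1 of the 3 nerve miRNAs were lower, lists too short to set against the 9.68%.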

How the data were processed

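Small RNA of mouse colorectum was sequenced on an Ion Proton, per the labels' protocols. The submitters' processing notes name BWA and mm10 (GRCm38). Values are the authors' deposited counts per mature miRNA, whole numbers with no normalization. For mismatches, strand and reads matching several hairpins, the handling is not stated here.

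Counts were tested across all miRNAs with edgeR 4.0.16 in R 4.3.3: filterByExpr (878 of 1915 kept), TMM, robust glmQLFit and glmQLFTest, two-sided, Benjamini-Hochberg at 0.05. The common coefficient of biological variation was 0.511. Standard errors are the fold change divided by the square root of F. DESeq2 1.42.0 and limma-voom 3.58.1 were alternatives. Ratios had 0.5 added to each count and were tested by exact permutation over mice. The floor of 3 counts was 0.330 TMM-scaled CPM in M3 and 0.637 in M6, the shallowest profile; totals lay between 3206127 and 15280434. Hairpins were placed with GENCODE M21. Scripts were tested on simulated data.

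Alternatives were other scalings, filters and tools, a non-robust fit, GC trends removed and each mouse left out. The entries, lists and tests were chosen with earlier results of these data known. Named were all entries, cluster partners, miRNAs of the same seeds, for each entry the 3 most similar of at least 50 CPM, and the most abundant marker of each list.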

Additional observations from a re-analysis of the deposited data

How the results depend on the processing

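Other scalings, filters and tools, a non-robust fit and removal of GC trends changed the side of the threshold for none of the 6 entries or the family sums they were run on (the filter at 50 CPM removed miR-100-3p), and leaving out each mouse changed it only for miR-100-5p without M4 (1 entry called in place of 0). Leave-one-out log2 fold changes ran from -1.46 to -0.41 for miR-99a-5p, -1.01 to -0.17 for miR-99b-5p, -2.45 to -1.23 for miR-100-5p, -0.30 to 0.73 for miR-100-3p (-0.071 without M4, -0.30 without M3), -1.16 to -0.52 for miR-125a-5p, -1.17 to -0.39 for miR-125b-5p, -1.43 to -0.55 for summed miR-99/100-5p and -1.14 to -0.43 for summed miR-125-5p. Without M3 and M4, a choice made from the profiles that itself favours calls, 5 entries were called: miR-99a-5p -2.03, miR-99b-5p -1.26, miR-100-5p -3.29, miR-125a-5p -1.53 and miR-125b-5p -1.38. The sums were then -2.14 and -1.43, and miR-100-3p was -0.91, not called. With neighbouring profiles as blocks (M4 over M3, 1 mouse against 1), values were 1.13 for miR-99a-5p, 0.11 for miR-99b-5p, 0.93 for miR-100-5p and 0.69 for summed miR-99/100-5p. With total counts alone, miR-99b-5p had 0.074, the cluster partners' median was 0.50 and that of the tested miRNA with the miR-125 seed -0.16. Differences in mean log2 ratio changed sign without single mice: all miR-99/100-5p to miR-125-5p 0.16 without M1 and 0.041 without M2, miR-99b-5p to miR-99a-5p -0.21 without M1, -0.24 without M2 and -0.027 without M4, miR-125a-5p to miR-125b-5p 0.00020 without M2, and miR-99a-5p plus miR-100-5p to miR-125b-5p 0.25 without M1 and 0.14 without M2. The causes of these changes were not tested. Calls over all miRNAs numbered 20, against 43 with total counts, 64 with no filter, 0 above 50 CPM, 111 with DESeq2, 0 with limma-voom, 0 to 237 without 1 mouse, 27 (13 higher, 14 lower) with neighbouring profiles as blocks and 576 without M3 and M4. Depth limits miR-100-3p, with 6 to 34 counts.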
